A study of Mus musculus with 16 samples.

Results

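The AP-1 transcription factor subunits were followed in ageing mouse skin through 8 genes, Fos, Fosb, Fosl1, Fosl2, Jun, Junb, Jund and Atf3. They were taken by symbol from the 45706 genes of the count table, with earlier results of these data known, and all 8 passed the low-count filter that left 21526 genes. AP-1 is a family of dimers in which a FOS protein pairs with a JUN protein through a leucine zipper, or JUN proteins pair with each other, and the basic region beside the zipper binds DNA. ATF3 belongs to the related ATF branch and can pair with JUN proteins. Fos, Fosb, Jun, Junb and Atf3 are early genes. They are transcribed within minutes of a growth factor, ultraviolet light or wounding from factors already present in the cell, and their transcripts are short-lived. In the epidermis AP-1 dimers bind many genes of keratinocyte differentiation, wound repair and inflammation.

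RNA was sequenced from ear skin of 8 male C57Bl/6J mice, an inbred strain, with no treatment or transgene named in the labels. Each mouse was clipped in the first ear at 24 months and in the second ear at 30 months, which gave 16 libraries in 8 pairs, so age goes together with the ear that was taken. The labels call the groups young and old and give ages of 23.8 to 24.4 and of 29.0 to 30.1 months, 5.0 to 6.3 months apart in a mouse. The libraries held 22967222 to 36162431 reads on genes.

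A clip holds epidermis, dermis, cartilage, muscle, fat and blood, and in such bulk tissue fewer cells of a type and less RNA per cell cannot be told apart. Markers of basal keratinocytes summed to 8553 to 16921 CPM (counts scaled by the library size with TMM factors) and those of 6 skeletal muscle genes to between 564 and 7138 CPM. At 30 months the libraries of mouse 29 and mouse 50 stood apart, with median correlations of 0.968 and 0.967 with the other libraries, against 0.976 to 0.988 for the remaining 14. Mouse 29 at 30 months held the most fat cell markers (699.6 CPM) and endothelial markers (236.6 CPM) of the 16 libraries, and mouse 50 at 30 months the most fibroblast (13993 CPM), macrophage (1501 CPM) and T cell markers (150.5 CPM). None of the 18 marker lists held a gene with an adjusted p under 0.05 between the ages in edgeR, and 15 of 90 marker genes (16.7%) had an unadjusted p under 0.05, beside 12.0% of all genes. The lists with most of these were endothelial markers (3 of 5 genes, sum higher at 30 months in 6 of 8 mice, mean log2 change 0.59), cartilage markers (3 of 5, sum higher in 1 of 8, -0.26) and differentiated keratinocyte markers (3 of 5, sum higher in 2 of 8, -0.20). The 3 differentiated keratinocyte genes did not all follow their sum, since Krt1 was higher at 30 months (log2 change 1.02) and Dsg1a lower (-0.46). The part of these differences in the values below was not tested. The change of each member is also given without mice 29 and 50.

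The stretches upstream of 5 members are shown because early genes are commonly regulated at sites close to the start, where CREB, ATF and AP-1 proteins can bind. Each line gives the 130 bases before the RefSeq start (GRCm38.p6), 5′ to 3′ on the strand of the gene. Capitals mark TGACG or its reverse complement in Fos, Fosb, Junb and Atf3, and TGACATCA in Jun.
Fos (chr12:85473760-85473889, plus strand): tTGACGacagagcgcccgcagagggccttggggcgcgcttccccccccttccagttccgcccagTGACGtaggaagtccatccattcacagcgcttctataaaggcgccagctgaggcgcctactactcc
Fosb (chr7:19310046-19310175, minus strand): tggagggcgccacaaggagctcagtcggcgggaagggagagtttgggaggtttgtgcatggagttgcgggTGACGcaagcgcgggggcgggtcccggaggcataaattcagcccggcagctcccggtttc
Junb (chr8:84978749-84978878, minus strand): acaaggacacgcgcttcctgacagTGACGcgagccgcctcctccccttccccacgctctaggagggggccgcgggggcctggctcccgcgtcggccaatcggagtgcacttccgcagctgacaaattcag
Jun (chr4:95052223-95052352, minus strand): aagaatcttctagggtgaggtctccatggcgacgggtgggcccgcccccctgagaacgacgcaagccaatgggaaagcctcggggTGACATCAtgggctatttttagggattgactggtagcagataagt
Atf3 (chr1:191183334-191183463, minus strand): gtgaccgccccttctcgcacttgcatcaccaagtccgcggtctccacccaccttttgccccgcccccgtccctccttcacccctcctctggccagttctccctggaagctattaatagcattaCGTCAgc

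Windows from 250 bases before to 50 bases after the start were available for 7 members, and Fosl1 had no entry. TGACG, searched on both strands, lay in 4 of the 7 windows and in 20.8% of 32851 windows of all genes. The Fos window held it at 129 and 66 bases before the start, that of Fosb at 60, that of Junb at 106 and that of Atf3 at 7. TGACATCA, found 45 bases before the Jun start, lay in 3.62% of all windows. The palindromic AP-1 site TGANTCA (7.81% of all windows) and the full element TGACGTCA (1.79%), also searched on both strands, were in none of the 7 windows. These are matches of letters in short windows, not measured binding. The RefSeq start lay within 30 bases of the GENCODE start for Fos, Fosb, Jun and Junb. It was 34706 bases inside the GENCODE gene for Atf3, 671 bases inside for Fosl2 and 1210 bases upstream of it for Jund, so the windows of these 3 are not at the outermost GENCODE start.

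On the RPKM scale, which divides CPM by the exon length in kilobases and so allows genes to be compared with each other, the JUN genes were the most abundant members at 24 months. Jund, whose product is made steadily in most resting cells, averaged 46.8 ± 6.42 RPKM (SD, n = 8) and stood above 93.6% of 21402 genes. Junb followed with 26.6 ± 1.85 RPKM, Jun with 20.6 RPKM and Fosl2 with 15.9 RPKM. Atf3 had a mean of 4.63 RPKM and Fos of 4.24 RPKM, near the middle of all genes, and Fosb (1.67 RPKM) and Fosl1 (1.48 RPKM) were the lowest. The 3 JUN genes summed to 93.9 ± 5.52 RPKM and the 4 FOS genes to 23.3 ± 3.38 RPKM, of which most was Fosl2.

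Of the 7 pairs of neighbours in this order, 5 differed beyond the spread between mice by an exact permutation test that flips the sign of each mouse's difference, two-sided (n = 8, p = 0.00781, the smallest the design allows, adjusted p = 0.0109 over the 7 pairs). Jund was above Junb by 1.75-fold, Junb above Jun and Jun above Fosl2 by 1.30-fold each, Fosl2 above Atf3 by 3.60-fold and Fos above Fosb by 2.76-fold, each in 8 of 8 mice. Atf3 and Fos were not separated (exact permutation p = 0.219, adjusted p = 0.255, Atf3 higher in 5 of 8 mice), nor were Fosb and Fosl1 (exact permutation p = 0.930, n = 8). Lengths mattered for some of these ranks. With the longest transcript in place of all exons, Fosl2 lay above Jun in 7 of 8 mice (log2 difference of Jun over Fosl2 -0.19, exact permutation adjusted p = 0.0365), and Fosb lay above Fosl1 in all 8 (log2 difference 0.63, adjusted p = 0.0137).

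**Figure D1:**
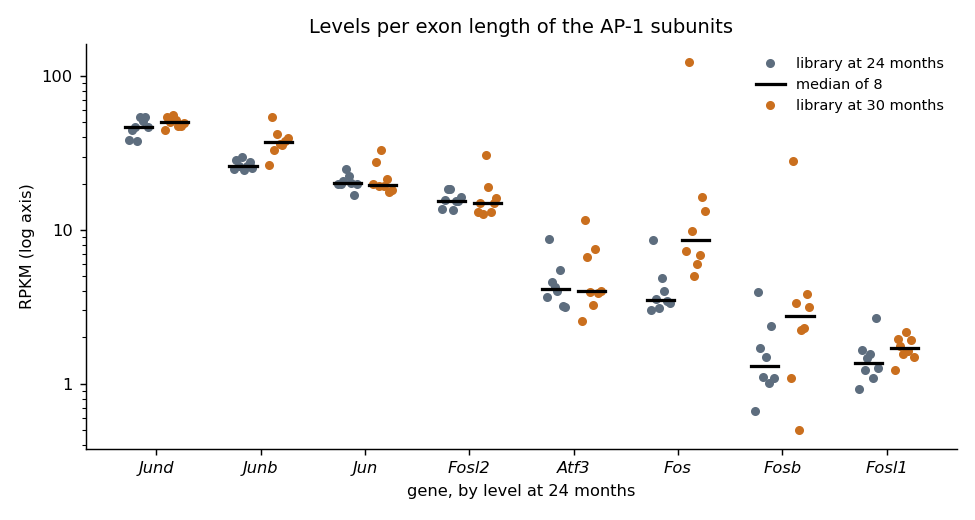
RPKM of each subunit on a log axis, 1 point per library, grey at 24 months and orange at 30 months, with the median of 8 libraries as a bar and genes ordered by their level at 24 months. Jund, Junb, Jun and Fosl2 lie above 10 RPKM in every library, and the high orange points of Fos (122.9 RPKM) and Fosb (28.2 RPKM) are mouse 14.

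By mean log2 level, on which the genes were ordered, the same order held at 30 months except for Fos. At that age Fos stood above Atf3 in 7 of 8 mice, against 3 of 8 at 24 months, and its mean of 23.5 RPKM rested on mouse 14, since the median was 8.57 RPKM. The summed FOS genes reached 47.6 ± 49.0 RPKM and the summed JUN genes 110.5 ± 15.2 RPKM. Both sums were higher than at 24 months in 8 of 8 mice, by 0.68 and 0.23 on the log2 scale. Since the members were chosen for their pattern between the ages, these differences and those that follow are descriptions and carry no test.

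Between the ages, the quasi-likelihood fit of edgeR, blocked by mouse, called 0 of 21526 genes at an adjusted p under 0.05 (0%), and so 0 of the 8 members. At an unadjusted p under 0.05 it called 2593 genes (12.0%), of which 1047 were higher at 30 months (4.86%). The members among them were Fos, Fosb and Junb, all higher. DESeq2 called 228 of 19439 genes after adjustment (1.17%), among them Fos and Junb. Nothing is read from these counts, since the members were picked on the same contrast. Their median log2 change was 0.20, beside 0.01 over all genes tested.

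Among the FOS genes, Fos had the widest difference. It is the founding early gene of the family, encoded on chromosome 12 (ENSMUSG00000021250, GENCODE on GRCm38, plus strand, 85473890 to 85477273). At 24 months its level ran from 7.05 CPM over a median of 8.20 CPM to 20.2 CPM, and at 30 months from 11.9 CPM over 20.2 CPM to 289.1 CPM. The highest library was mouse 14 at both ages, 7 of 8 libraries at 24 months lay below the lowest at 30 months, and 4 of 8 at 30 months lay above all of those at 24 months. All 8 mice were higher at 30 months, a pattern that 1.08% of genes shared, with changes from 0.30 in mouse 43 to 3.84 in mouse 14 on the log2 scale. The fitted log2 change was 1.56 ± 0.35 (SE) and became 1.25, 1.69 and 1.68 when mouse 14, 29 or 50 was left out. Without the mouse block it was 2.47.

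Fosb, a close relative of Fos whose short splice form is known for its stability, is encoded on chromosome 7 (ENSMUSG00000003545, minus strand, 19302696 to 19310051). Its level ran from 4.13 over 8.08 to 24.6 CPM at 24 months and from 3.10 over 17.1 to 175.9 CPM at 30 months. The ages overlapped widely, mouse 14 was highest at both ages, and mouse 29 at 30 months was the lowest of all 16 libraries. Fosb was higher at 30 months in 7 of 8 mice, with a fitted log2 change of 0.96 ± 0.33, and lower by 2.23-fold in mouse 29. Without mouse 14 the change was 0.69, without mouse 29 it was 1.23, without mouse 50 it was 0.93, and without the mouse block 1.75.

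Fosl1, which encodes FRA-1 and lacks the strong activation domain of FOS, was the rarest member by CPM. It lies on chromosome 19 (ENSMUSG00000024912, plus strand, 5447547 to 5455946). Levels ran from 1.87 over 2.77 to 5.46 CPM at 24 months and from 2.48 over 3.46 to 4.39 CPM at 30 months, on 57 to 162 reads per library. The highest value belonged to mouse 64 at 24 months, the mouse that ran against the other 7. The fitted log2 change was 0.26 ± 0.13, and it became 0.37, 0.29 and 0.21 when mouse 64, 29 or 50 was left out. The gene spans of Fosl1 and Ccdc85b overlap on opposite strands by 2767 bases, and Ccdc85b (10.1 to 15.5 CPM) had a log2 change of 0.03.

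Fosl2 (ENSMUSG00000029135, chromosome 5, plus strand, 32135801 to 32157842), which encodes FRA-2, was the most abundant FOS gene, at 131 over 150.1 to 180 CPM at 24 months and 123 over 145 to 298 CPM at 30 months. The ages overlapped, and the highest library was mouse 29 at 30 months, 2.06-fold above the median of the other 7. Only 2 of 8 mice, 29 and 43, were higher at 30 months. The fitted log2 change was 0.03 ± 0.12 and turned to -0.06 without mouse 29, while it was 0.07 without mouse 50 and 0.12 without mouse 21. The log2 change was 0.73 in mouse 29 and 0.48 in mouse 43, against -0.53 in mouse 21 and -0.23 in mouse 50. In mice 13, 14, 64 and 75 it was close to none, at -0.06 to -0.02. The paired lines by mouse show these differences.

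**Figure D2:**
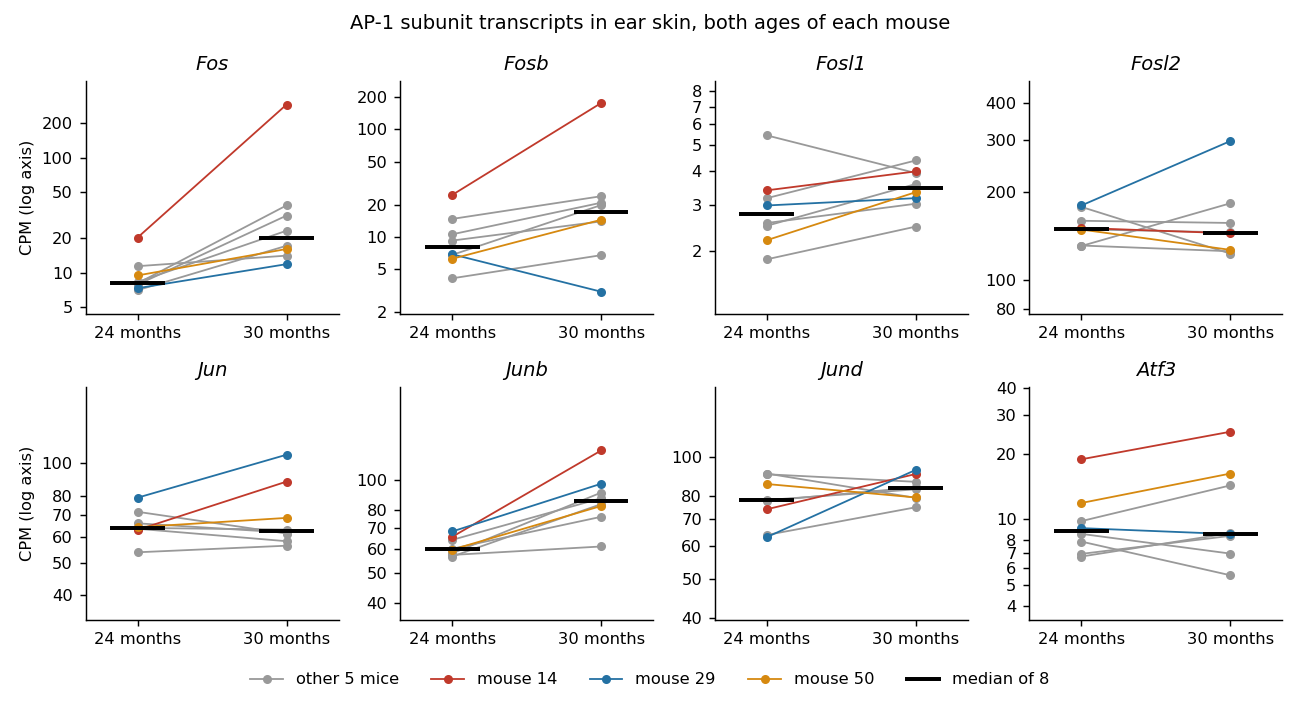
CPM of the 8 subunits on log axes, a line joining both ages of each mouse, with mouse 14 in red, mouse 29 in blue, mouse 50 in orange, the other 5 mice in grey and the median of 8 as a black bar. Every line of Fos and Junb goes up, mouse 14 leads Fos and Fosb at 30 months (289.1 and 175.9 CPM), and mouse 29 leads Fosl2 (298 CPM) while its Fosb line goes down.

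Among the JUN genes, Junb had the most even difference. JUNB is a partner of FOS that can restrain JUN, and its gene lies on chromosome 8 (ENSMUSG00000052837, minus strand, 84974484 to 84978718). Levels ran from 56.6 over 59.8 to 68.2 CPM at 24 months and from 61.0 over 85.4 to 124 CPM at 30 months. Of the 8 libraries at 30 months, 7 lay above all 8 at 24 months, and only mouse 13 fell within their range. The libraries at the ages lay fully apart in that direction for 15 of 21526 genes (0.0697%), none of them a member.

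Junb was higher at 30 months in 8 of 8 mice, by 0.09 in mouse 13 to 0.93 in mouse 14 on the log2 scale. The fitted log2 change was 0.50 ± 0.08, with 0.44 without mouse 14, 0.50 without mouse 29 and 0.51 without mouse 50. The Junb span shares 351 bases with Prdx2 on the other strand, which lay at 87.3 to 138 CPM and had a log2 change of -0.18.

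Jun, the founding JUN gene and a target of JNK signalling at the protein level, is encoded on chromosome 4 (ENSMUSG00000052684, minus strand, 95049034 to 95052222). Its level ran from 53.9 over 64.03 to 78.8 CPM at 24 months and from 56.4 over 62.5 to 106.3 CPM at 30 months. The ages overlapped, with mice 29 and 14 the only libraries at 30 months above all those at 24 months. It was higher in 4 of 8 mice, with a fitted log2 change of 0.08 ± 0.09 that became 0.02, 0.03, 0.08 and 0.13 when mouse 14, 29, 50 or 43 was left out. Junos, an antisense gene sharing 689 bases with Jun, was at 0.891 to 2.79 CPM.

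Jund (ENSMUSG00000071076, chromosome 8, plus strand, 70698949 to 70700616) ran from 63.3 over 77.9 to 90.8 CPM at 24 months and from 74.96 over 83.5 to 92.7 CPM at 30 months. The ages overlapped almost fully, and the spread at 30 months (SD of log2 CPM 0.10) was the smallest of the 8 members at that age. Jund was higher in 5 of 8 mice, with a fitted log2 change of 0.11 ± 0.08, 0.05 without mouse 29 and 0.14 without mouse 50. Of its 1668 exonic bases, 919 lie under the annotated antisense gene Gm11175, which was listed at 0 in every library. No read was counted for Gm11175, so any reads there went to Jund alone or to no gene. Which of these happened is not given in the sources used here and was not tested. If such reads were left out, the level of Jund given here is too low. The levels of the other members that share bases with another gene, Jun and Junb among them, are also uncertain, and so are the ranks.

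Atf3, a stress-induced gene on chromosome 1 (ENSMUSG00000026628, minus strand, 191170296 to 191218039), ran from 6.75 over 8.84 to 18.8 CPM at 24 months and from 5.54 over 8.59 to 25.2 CPM at 30 months. Mouse 14 was highest at both ages, and the ages overlapped. It was higher in 5 of 8 mice, with a fitted log2 change of 0.15 ± 0.13, which became 0.11, 0.19, 0.10 and 0.25 when mouse 14, 29, 50 or 13 was left out. Unlike that of Fos, its median over the 8 libraries of an age did not go up, being 8.84 CPM at 24 months and 8.59 CPM at 30 months. The median change within a mouse was 0.315 on the log2 scale, beside 1.38 for Fos.

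**Figure D3:**
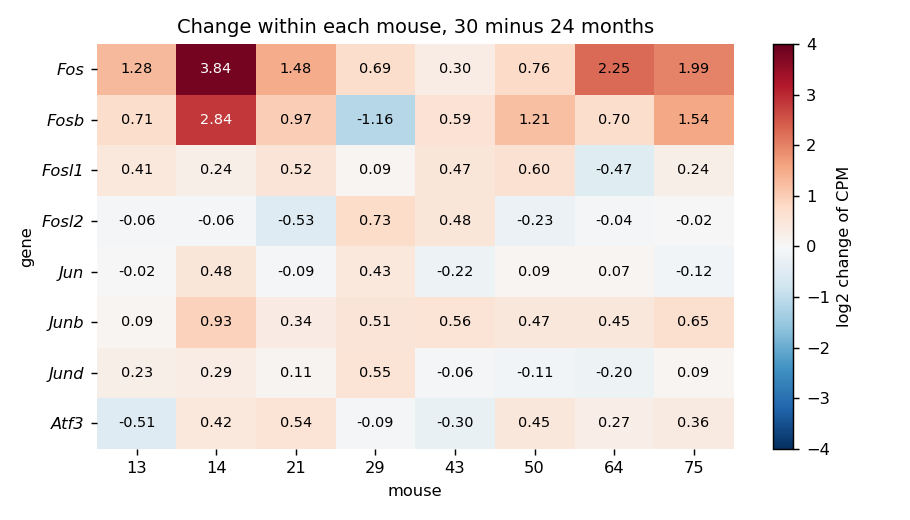
Change in log2 CPM from 24 to 30 months for each subunit (rows) in each mouse (columns), red for higher and blue for lower at 30 months, with the value in each cell. The Fos and Junb rows are red in all 8 mice, Fosl2 is blue in 6, and mouse 14 has the largest change of its row for Fos (3.84), Fosb (2.84), Jun (0.48) and Junb (0.93).

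The mice differed in which subunits changed. Mouse 14 had 7 of 8 members higher at 30 months, and at that age it held the highest of all 16 libraries for Fos, Fosb, Junb and Atf3. Its Fos level was 16.9-fold and its Fosb level 12.2-fold above the median of the other 7 mice, against 1.49-fold for Junb. This library did not stand apart over all genes (median correlation 0.984) and held the highest value of 16 for 2.75% of genes. Its summed markers took places 5 to 15 of 16 in the 18 cell type lists, so none of them was highest or lowest there. Mouse 29 at 30 months held the highest library for Fosl2, Jun and Jund, came next to mouse 14 for Junb, and was lowest for Fosb. In that library 17.6% of all genes reached their highest value. Mouse 50, the other library that stood apart, was in no top position for a member, with Atf3 in place 3 as its highest.

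The range across mice also differed by subunit. At 24 months the highest library exceeded the lowest by 5.96-fold for Fosb, 2.87-fold for Fos and 2.79-fold for Atf3, but by 1.20-fold for Junb and 1.37-fold for Fosl2. At 30 months these were 56.7-fold, 24.4-fold, 4.55-fold, 2.04-fold and 2.42-fold, and Jun went from 1.46-fold to 1.88-fold. The highest library at 30 months was mouse 14 for Fosb, Fos, Atf3 and Junb, and mouse 29 for Fosl2 and Jun. Next to mouse 14 came 23.9 CPM for Fosb and 38.5 CPM for Fos, over lowest values of 3.10 and 11.9 CPM. The wide ranges of Fosb and Fos at 30 months thus rest largely on 1 library. The range was narrower at 30 months for Fosl1 (2.92-fold and then 1.77-fold) and Jund (1.44-fold and then 1.24-fold). Whether a member differed between mice beyond the spread within them, a question the choice of members did not use, was tested with the mouse term of the same fit. In edgeR no gene passed (0 of 21526, 0%, with 565 or 2.62% at an unadjusted p under 0.05), and the adjusted p of each member was 0.968. The F statistic behind it was 11.07 for Atf3, 9.19 for Fosb and 7.28 for Fos. For the other members it ran from 0.817 (Jund) to 3.62 (Fosl1). DESeq2's likelihood ratio test called 73 genes (0.339%), among them Fos (adjusted p = 0.00226), Fosb (6.73e-09) and Atf3 (1.15e-07). The call of a mouse effect on these 3 members therefore depends on the tool.

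Fos and Fosb varied together over the 16 libraries (Pearson's r = 0.878 and Spearman's rho = 0.706 of log2 CPM), with r = 0.674 without mouse 14. Fos and Junb had r = 0.790, and 0.666 without mouse 14. Fos and Atf3 had r = 0.611, and 0.167 without mouse 14. At 24 months alone, over 8 libraries, Fos had r = 0.757 with Fosb, 0.833 with Atf3 and 0.208 with Junb. Over the 7 without mouse 14 these were 0.333, 0.341 and -0.424, so the values at 24 months rest on that mouse. Fosl2 had r from -0.333 to 0.298 with Fos, Fosb, Junb and Atf3, and r = 0.597 with Jun, where Spearman's rho was 0.097. The libraries share mice in pairs, and each r over the 16 libraries includes the difference between the ages.

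The genes with the pattern most like Fos over the 16 libraries were Dusp1, a MAP kinase phosphatase (r = 0.945, 0.887 without mouse 14), Ier2, an early gene (r = 0.888), Fosb, the processed pseudogene Gm15198 (r = 0.872) and Ppp4c, a phosphatase subunit (r = 0.818, 0.567 without mouse 14). Dusp1 ran from 36.4 over 40.8 to 72.5 CPM at 24 months and from 60.4 over 74.5 to 222 CPM at 30 months, and mouse 14 was again the highest. Ier2 was also the gene most like Junb (r = 0.903). For Fosl1 it was Hbegf, an EGF receptor ligand (r = 0.816, 0.879 without mouse 14), and for Fosl2 it was Foxo3, a forkhead transcription factor (r = 0.967). The nearest genes were Ubald1 for Jun (r = 0.871), the long non-coding gene 4932702P03Rik for Jund (r = 0.845) and Isg15, an interferon-induced gene, for Atf3 (r = 0.814).

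**Figure D4:**
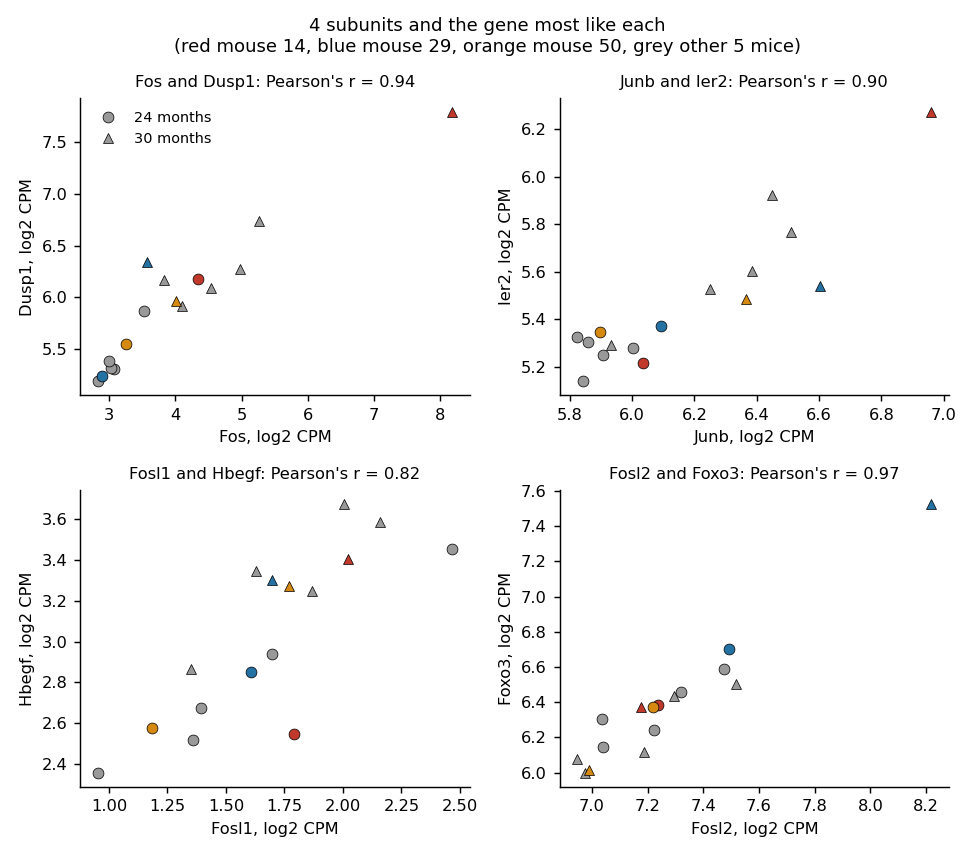
Log2 CPM of 4 subunits (x axes) against the gene most like each (y axes), circles at 24 and triangles at 30 months, with mouse 14 in red, mouse 29 in blue, mouse 50 in orange and the other 5 mice in grey. Mouse 14 at 30 months is at the upper right for Fos with Dusp1 and Junb with Ier2, and mouse 29 at 30 months for Fosl2 with Foxo3 (r = 0.967).

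Genes that act with, upstream or downstream of AP-1 were followed in 6 lists. None of them held a gene with an adjusted p under 0.05 in edgeR. At an unadjusted p under 0.05, 4.86% of all genes were higher and 7.18% lower at 30 months, and the lists are read beside these shares. Of 25 other bZIP partners, such as ATF, BATF, CREB and MAF genes, 2 were higher and 2 lower, with a median log2 change of 0.06 that became -0.01 without mouse 29, 0.12 without mouse 43 and 0.03 without mouse 50. The number higher ran from 1 (without mouse 50 or 64) to 3 (without mouse 13, 21, 29 or 43). The members with the smallest p were Maf, at 270 ± 19.4 CPM (SD, n = 8) at 24 months and 218 ± 33.6 CPM at 30 months (log2 change -0.32 ± 0.09, lower in 8 of 8 mice, edgeR adjusted p = 0.279), Atf4 (0.17, adjusted p = 0.333) and Nfe2l2, which encodes NRF2 (0.19, adjusted p = 0.369).

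Of 40 genes of the signalling upstream of AP-1, 5 were higher and 0 lower, with a median of 0.03. The first were Elk4 and Elk3, ternary complex factors that act with SRF at early genes, and Map3k5, a stress kinase. Elk4 was at 73.0 ± 5.24 CPM at 24 and 88.3 ± 12.7 CPM at 30 months (log2 change 0.27, higher in 8 of 8 mice, edgeR adjusted p = 0.297), Elk3 had a log2 change of 0.32 and Map3k5 of 0.29. The number higher was 3 without mouse 21 or 29 and 4 without mouse 50. The median was 0.03 without mouse 29 and 0.04 without mouse 50.

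Of 14 genes of transcript and protein turnover, 2 were higher and 0 lower, also without each mouse in turn, and the median log2 change was 0.02 (0.01 without mouse 29, 0.03 without mouse 50). They were Zfp36l2 and Zfp36, whose products bind AU-rich elements and promote decay of early gene transcripts. Zfp36l2 was at 198 ± 16.4 CPM at 24 and 270 ± 57.4 CPM at 30 months (log2 change 0.43, higher in 8 of 8 mice, edgeR adjusted p = 0.222, called by DESeq2), and Zfp36 had a log2 change of 0.39 in the same direction in 8 of 8 mice. Zfp36l1, of the same family, had a change of -0.09 and was higher in 3 of 8 mice.

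AP-1 targets of the literature were higher in 4 and lower in 1 of 34 genes tested, with a median of 0.23. Hbegf was at 6.80 ± 1.85 CPM at 24 and 10.2 ± 1.67 CPM at 30 months (log2 change 0.60 ± 0.09, 8 of 8 mice, edgeR adjusted p = 0.133). Dusp1 had a log2 change of 0.91 ± 0.14 (8 of 8 mice, edgeR adjusted p = 0.141). Mmp9, a gelatinase, went the other way, from 7.75 ± 2.29 to 3.81 ± 1.502 CPM (log2 change -1.07 ± 0.26, lower in 8 of 8 mice, edgeR adjusted p = 0.222). DESeq2 called these 3 and no other gene of the list. The number higher moved most without mouse 64, to 9 of 34 (26.5%), and was 2 without mouse 21, 50 or 75 and 3 without mouse 29. The number lower was 3 without mouse 14, and the median was 0.12 without mouse 29 and 0.32 without mouse 64.

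The other immediate-early genes had the largest share of the 6 lists, 13 higher and 0 lower of 34 (38.2% higher beside 4.86% of all genes), with a median of 0.21. This list was written with the rise of several of its members known and is no independent evidence. The smallest p belonged to Ier3, a survival-linked early gene (17.7 ± 1.93 CPM at 24 and 24.4 ± 3.55 CPM at 30 months, log2 change 0.46 ± 0.08, edgeR adjusted p = 0.141). Egr1, a zinc finger factor, was at 60.0 ± 16.6 and 119 ± 69.1 CPM (0.85 ± 0.16, edgeR adjusted p = 0.157), and Ier2 had a log2 change of 0.40 ± 0.10 (adjusted p = 0.240). All 3 were higher in 8 of 8 mice, and DESeq2 called 8 genes of the list, all higher. The number higher was 12 without mouse 14, 50 or 75 and 13 without mouse 29, where 1 was lower. Without mouse 43 it was 15, also with 1 lower. The median was 0.22 without mouse 29 and 0.19 without mouse 50. Of the 35 listed genes, 18 had their highest of 16 libraries in mouse 29 at 30 months, beside the 17.6% of all genes given above.

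Heat shock and hypoxia genes, which respond to handling and low oxygen, had 0 of 12 higher and 1 lower, with a median of -0.05 that became -0.08 without mouse 29 and 0.01 without mouse 50. Without mouse 43, 1 was higher and 2 were lower, and without mouse 50 the number lower was also 2. With all 8 mice the lower gene was Hsph1, a chaperone (25.2 ± 3.53 CPM at 24 and 20.6 ± 2.63 CPM at 30 months, log2 change -0.28 ± 0.08, lower in 7 of 8 mice, edgeR adjusted p = 0.279). Hif1a had a log2 change of -0.16, and Hmox1 one of 0.26 (edgeR adjusted p = 0.498).

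**Figure D5:**
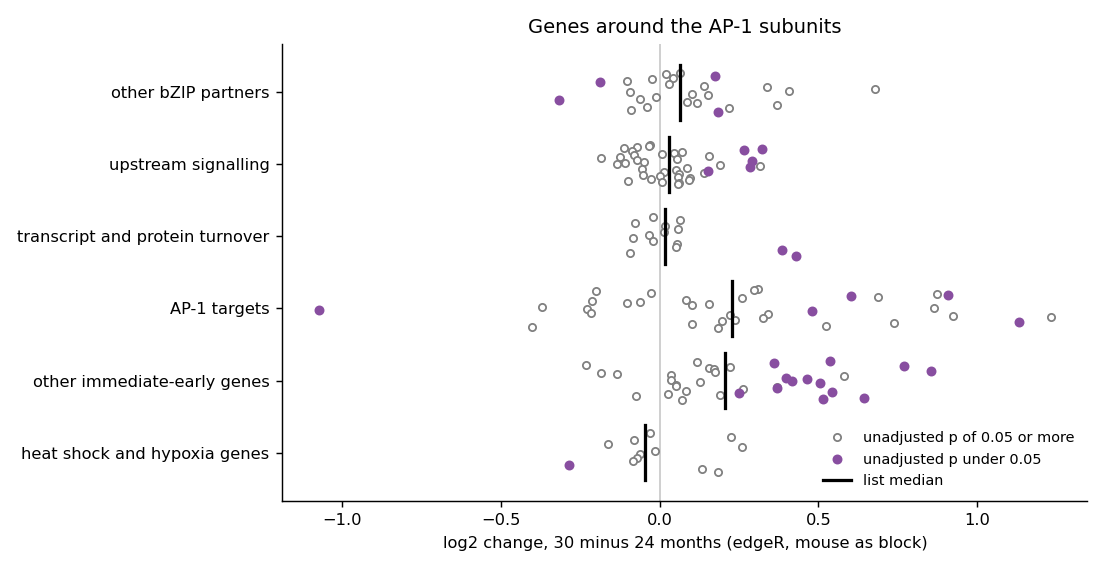
Log2 change from 24 to 30 months of each tested gene in 6 lists around the AP-1 subunits (1 point per gene), purple for an unadjusted edgeR p under 0.05, with the list median as a bar. Purple points lie to the right in other immediate-early genes (13 of 34), and Mmp9 at -1.07 is the far left point among AP-1 targets.

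Some features of the genes and transcripts that the choice did not use were held by a few of the members. Jun, Junb and Jund have a single exon in their longest transcript, as do 6.38% of 15848 protein-coding genes tested, whose median is 8 exons. The pentamer ATTTA, the core of AU-rich elements that mark short-lived transcripts, occurred 4.91 times per kilobase in the 3′ UTR of Fos, 4.12 in Junb and 3.24 in Jun, against a median of 1.17 over 15732 genes. Of those genes, 5.16% were at least as dense as Fos, 8.24% as Junb and 14.7% as Jun. Fosb was at 0.434 per kilobase, and Atf3, Jund, Fosl2 and Fosl1 lay between 1.57 and 2.53. The overlapping double pentamer ATTTATTTA was present in Fos and in no other member, and in 6.23% of these genes.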

How the data were processed

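The data are 16 RNA-seq libraries of mouse ear skin, 8 mice at 24 and 30 months, made with a TruSeq RNA kit and sequenced single-end. The authors deposited raw counts per gene for each library, not normalized. The submitters' processing notes name CASAVA 1.8.4, TopHat2 2.1.0, HTSeq 0.6.1p1 and the build mm10. Whether counting used strand is not given in the sources used here, and the kit does not mark strand, so reads on overlapping genes (5 members share bases with another gene) cannot be told apart. The 5 summary lines that name no gene (18.7% to 21.1% of a library) were left out.

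Of 45706 genes, 45143 matched GENCODE release M21 (GRCm38). Counts were fitted in R 4.3.3 with edgeR 4.0.16 (TMM, filterByExpr, quasi-likelihood test) with age and mouse as terms, over 21526 genes. The p-values were adjusted by the Benjamini-Hochberg method and read at 0.05. The SE of an edgeR log2 change was derived from its test, as the absolute change over the square root of the F statistic. The numbers in the sample titles pair the libraries, and the study describes clipping each animal at both ages. Deviations from the age means correlated by a median of -0.02 within a mouse and -0.01 between mice. The alternatives were DESeq2 1.42.0 and its size factors, plain library sizes, no low-count filter, no mouse block, age in months, each mouse left out, and for levels another length. Levels used RPKM from exon lengths and sign-flip tests in Python 3.11.15 with scipy 1.17.1. The fits and the sign-flip test were tested on simulated data. Upstream stretches are RefSeq entries, and 3′ UTRs are those of GENCODE.

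The members, lists and tests were chosen with earlier results of these data known. The genes named are the 8 members, the 3 genes of each list with the smallest p, and the genes most correlated with a member in log2 CPM (5 for Fos, 1 for each other). Overlapping genes and mice 14, 29 and 50 were singled out after their values were seen. With 8 mice, replicates are animals, and p-values rest on their spread.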

Additional observations from a re-analysis of the deposited data

Results flagged for a closer look

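A library was set apart when its gap to the next exceeded the 95% limit of Dixon's test in a group of 8. Of 24 groups examined (each member at each age and its change within mice), 6 had such a library. Normally distributed values would give about 1.2 (1 in 20). The levels entered as CPM without logs, so this rate need not hold and 6 is not read as an excess. Which of the 6 would be set apart on log2 CPM was not tested. Of the 6, 4 were mouse 14. At 24 months its Fos level was 20.2 CPM, with the next mouse at 11.4 CPM, and its Atf3 level was 18.8 CPM, with the next at 11.9 CPM. At 30 months its Fos level was 289.1 CPM, with the next at 38.5 CPM, and its Fosb level was 175.9 CPM, with the next at 23.9 CPM. Mouse 64 at 24 months had 5.46 CPM of Fosl1, with the next at 3.39 CPM. Mouse 29 at 30 months had 297.9 CPM of Fosl2, with the next at 183 CPM, in a library that also stood apart over all genes. No within-mouse change was set apart, although the change of Fos in mouse 14 was the largest. The groups are not independent, since the same libraries enter each gene.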

How the results depend on the processing

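Over 204 recomputed values, 200 kept their call and 4 moved. At an adjusted p under 0.05 for age, edgeR called 0 genes, which was 3 with no replicate block (the mouse pairing left out) and 228 with the Wald test of DESeq2. The fixed lists held 0 such genes and 12 with DESeq2. For the mouse term, edgeR called 0 genes and the likelihood ratio test of DESeq2 73. The cause of these gaps between tools was not tested. Leaving out each mouse in turn gave 0 genes each time for the age and mouse terms and for the lists, a median member change of 0.18 to 0.26 (main 0.20) and 5 of 7 neighbour pairs throughout. The block changed no other call, and none of 112 recomputed member changes moved by over 1 SD between mice, but 2 changed sign, both of Fosl2, without mouse 29 (-0.06) and without mouse 43. With the libraries of 30 months or the longest transcript 6 of 7 pairs differed, with Fos above Atf3 in the first and Fosl2 above Jun in the second. No single gene's age difference passed adjustment in edgeR with 8 mice and the mouse block. The levels of Fosl1 rest on at most 162 reads, and ear and age cannot be told apart.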
